A study of Rattus norvegicus with 36 samples.

Results

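The genes described here are 31 that make, sense, break down and move cholesterol, chosen by symbol from a table of 20603 rows measured in hippocampal RNA of female rats. All 31 were found. They are 18 enzymes of synthesis, 5 regulators of the SREBP system, the turnover enzyme Cyp46a1, 3 genes of efflux and 4 of uptake and intracellular transport. The synthesis genes were compared with the 7 efflux, uptake and transport genes for how much they varied and how they varied together across libraries.

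The study sequenced total RNA from frozen hippocampus of 36 animals, and the labels name 6 groups with 6 animals in each. Reg6m and Reg9m are regular cyclers sampled at 6 and 9 months, Irreg9m and Acyc9m are irregular and acyclic animals of 9 months, and Acyc16m are acyclic animals of 16 months. RegOVX10m animals were ovariectomized at 9 months and sampled at 10 months. No strain is stated. The columns of the table are named hippo1 to hippo36, and nothing in the labels ties a column to an animal or a group. All 36 libraries were therefore treated as a single set without groups, no effect of age, cycling or surgery was tested, and variation between groups cannot be told apart from variation within them.

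Cholesterol barely crosses the blood-brain barrier, so the brain makes its own, in neurons, astrocytes and, for myelin, oligodendrocytes. When membrane cholesterol is low, SCAP carries the SREBP transcription factors (genes Srebf2 and Srebf1) out of the endoplasmic reticulum, they are cleaved, and they switch on the genes of synthesis; INSIG proteins hold SCAP back when sterol is plentiful. Surplus cholesterol leaves neurons mainly after CYP46A1 converts it to 24S-hydroxycholesterol, an oxysterol that can activate the LXR receptors, which in turn switch on the transporters ABCA1 and ABCG1. Cholesterol taken up on lipoproteins, in part through LRP1, is released from lysosomes by NPC2 and NPC1.

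Promoters of some genes that varied together, and of Srebf2 and Abca1, are shown first. SREBP acts at promoters together with NF-Y, a factor that binds CCAAT boxes. The sequences come from RefSeq on the rat build GRCr8, cover 250 bases before to 50 bases after the annotated start, and read 5′ to 3′ along the gene. Capitals mark CCAAT or its reverse complement ATTGG. Hmgcs1, Idi1 and Msmo1, at chr2:53382054-53382353 on the plus strand, chr17:66547475-66547774 on the minus strand and chr16:29746863-29747162 on the plus strand, belong to genes that followed Hmgcs1 across libraries.
Hmgcs1: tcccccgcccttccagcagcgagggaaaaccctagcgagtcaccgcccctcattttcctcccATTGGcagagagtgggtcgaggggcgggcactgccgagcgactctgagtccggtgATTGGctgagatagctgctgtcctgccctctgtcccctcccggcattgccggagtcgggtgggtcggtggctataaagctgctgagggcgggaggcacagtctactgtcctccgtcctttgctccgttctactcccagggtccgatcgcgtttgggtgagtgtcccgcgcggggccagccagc
Idi1: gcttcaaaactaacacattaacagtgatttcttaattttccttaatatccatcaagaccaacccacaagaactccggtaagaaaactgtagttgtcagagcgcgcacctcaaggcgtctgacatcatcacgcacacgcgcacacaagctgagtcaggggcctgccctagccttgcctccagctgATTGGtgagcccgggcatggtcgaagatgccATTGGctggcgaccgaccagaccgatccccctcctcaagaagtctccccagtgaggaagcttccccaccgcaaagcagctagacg
Msmo1: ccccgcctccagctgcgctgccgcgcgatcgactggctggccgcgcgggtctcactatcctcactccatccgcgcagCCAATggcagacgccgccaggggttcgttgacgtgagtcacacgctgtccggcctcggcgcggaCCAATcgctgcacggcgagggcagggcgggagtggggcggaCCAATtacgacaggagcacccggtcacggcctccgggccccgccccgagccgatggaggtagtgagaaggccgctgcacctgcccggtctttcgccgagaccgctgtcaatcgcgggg
Mvk and Fdps, at chr12:47819454-47819753 on the minus strand and chr2:176804767-176805066 on the minus strand, belong to genes that followed Srebf2, whose own promoter lies at chr7:115543057-115543356 on the plus strand.
Mvk: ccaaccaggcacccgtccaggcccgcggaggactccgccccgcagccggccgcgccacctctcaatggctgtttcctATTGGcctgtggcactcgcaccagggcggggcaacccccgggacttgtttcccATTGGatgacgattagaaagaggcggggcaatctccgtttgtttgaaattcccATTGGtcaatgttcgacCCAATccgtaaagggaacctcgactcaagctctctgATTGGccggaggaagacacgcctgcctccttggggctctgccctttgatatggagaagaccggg
Fdps: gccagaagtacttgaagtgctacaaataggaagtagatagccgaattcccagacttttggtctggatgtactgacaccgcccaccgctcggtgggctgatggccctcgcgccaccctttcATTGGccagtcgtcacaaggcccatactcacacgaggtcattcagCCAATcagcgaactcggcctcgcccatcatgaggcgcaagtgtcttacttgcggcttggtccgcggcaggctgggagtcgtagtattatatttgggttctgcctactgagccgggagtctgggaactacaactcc
Srebf2: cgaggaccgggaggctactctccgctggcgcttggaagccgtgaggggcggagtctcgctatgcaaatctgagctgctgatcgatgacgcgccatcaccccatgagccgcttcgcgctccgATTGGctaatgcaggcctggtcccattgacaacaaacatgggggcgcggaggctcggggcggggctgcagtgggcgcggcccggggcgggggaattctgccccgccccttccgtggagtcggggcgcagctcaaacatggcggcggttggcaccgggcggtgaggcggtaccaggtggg
The promoter of Abca1, at chr5:72596424-72596723 on the minus strand, holds no CCAAT box in this window.
Abca1: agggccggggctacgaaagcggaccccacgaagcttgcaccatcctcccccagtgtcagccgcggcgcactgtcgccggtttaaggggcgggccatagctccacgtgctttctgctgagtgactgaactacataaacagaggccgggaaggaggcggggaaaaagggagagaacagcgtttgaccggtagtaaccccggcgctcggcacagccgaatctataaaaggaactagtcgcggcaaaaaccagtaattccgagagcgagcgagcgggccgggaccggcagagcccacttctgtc

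CCAAT boxes were common upstream of the synthesis genes. Of the 31 genes, 25 matched a single promoter, 5 had no entry (Pmvk, Fdft1, Sqle, Abcg1 and Stard4), and Srebf1, with 2 entries, was left out. CCAAT on either strand occurred in 12 of 15 synthesis promoters, in 3 of 4 regulator promoters, in that of Cyp46a1 and in 2 of 5 promoters of efflux, uptake and transport genes, against 37.5% of all 33469 promoters of the same length. Mvk and Nsdhl, a mevalonate kinase and a sterol dehydrogenase, each had 5 copies, and Msmo1, Hsd17b7 and the transport gene Npc2 had 3. Acat2, which also followed Hmgcs1 across libraries, had no CCAAT in its promoter, and neither did Cyp51 or Dhcr7. The GC box GGGCGG, searched on both strands, was in 13 of 15 synthesis promoters and in 4 of the 5 efflux, uptake and transport promoters, against 33.1% of all promoters. A sterol regulatory element core, TCACNCCAC on either strand, was in 0 of the 25, against 1.12% of all promoters. The shorter TCACNCCA, which every copy of the longer motif also contains, was in Msmo1, 190 bases before the start, and in Srebf2, 156 bases before it, against 3.89% of all promoters. The motifs were not weighed for overlap with each other beyond this pair, and a match describes letters, not a bound site.

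Beyond the 31 genes, the libraries had column totals of 34456000 to 35986000 normalized counts. Depth, estimated from the size of the smallest common value in each column, ran from 32900000 to 40200000 reads in 35 libraries and was 17900000 reads in hippo30. The median correlation of a library with the others was 0.989 to 0.993, lowest in hippo17. That library had the highest oligodendrocyte, astrocyte and endothelial marker means and the lowest neuron, microglia and hippocampal-field marker means of the 36. In each of the 8 cell type and region marker lists, no gene found was at 0 in every library. The choroid plexus markers had a mean log2 level of 4.90 to 7.48, highest in hippo8. Idi1, Srebf1 and Npc1 overlap another protein-coding gene in RefSeq (Wdr37, Rai1 and Rmc1), and how shared reads were assigned is not stated. Normalized counts are not divided by gene length, so levels are compared between libraries for each gene and not between genes.

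Each enzyme of synthesis was measured in every library, and the list's median spread was a little below that of all tested genes. Among the 18 synthesis genes the median ratio of the highest to the lowest library was 1.31, against 1.35 over the 31 genes and 1.42 over all 15837 tested genes, those with a median of 10 or more. The median interquartile range was 0.134 log2 units for synthesis, 0.138 for the 31 genes and 0.146 for all tested genes. Of the 18 synthesis genes, 6 had an interquartile range above the all-gene median and 12 below it; over the 31 genes the split was 13 and 18. Lss, at 0.243, and Idi1, at 0.208, were among the 6 above it. All 31 had a median of 299.9 or more, so these comparisons with all tested genes were not matched for level.

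Early steps were measured as follows, as the lowest, median and highest normalized count over the 36 libraries. Acat2, which joins 2 acetyl-CoA units, ran over 1104, 1209 and 1417. Hmgcs1, the cytosolic HMG-CoA synthase, ran over 8988, 9868 and 11050, with hippo3 lowest and hippo36 highest. The kinases that phosphorylate mevalonate followed, with Mvk at 390.0, 509.2 and 570.8 and Pmvk at 949.5, 1150 and 1298. Mvd, the decarboxylase that makes isopentenyl diphosphate, ran over 663.1, 853.5 and 1071, and its lowest library, hippo16, stood below the next at 731.4. Idi1, which isomerizes isopentenyl diphosphate, ran over 912.8, 1069 and 1223. Fdps, the farnesyl diphosphate synthase, ran over 4242, 4984 and 5522. Fdft1, squalene synthase, ran over 2610, 2993 and 3426. These 8 enzymes form the route up to squalene, and single libraries stood away from the rest for some of them, such as hippo15 for Mvk, at 390.0 against 449.1 for the next, and hippo10 for Mvd, at 1071 against 979.2.

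The sterol-forming enzymes after squalene included the widest and the narrowest ranges of synthesis. Lss, the cyclase that makes lanosterol, ran over 2253, 3046 and 4241, a 1.88-fold range and the widest of the 18. Its high libraries were spread along the range, with 3702, 3808 and 4241 as the top values. Sc5d, the lathosterol desaturase, ran over 5321, 5892 and 6359, a 1.20-fold range and the narrowest of the 18. Sqle, the squalene epoxidase, ran over 2506, 2800 and 3059. Cyp51, the lanosterol demethylase, ran over 4953, 5636 and 6232, and Msmo1, which removes methyl groups from the sterol together with Nsdhl and Hsd17b7, ran over 3451, 3893 and 4287. Nsdhl ran over 1093, 1285 and 1403 and Hsd17b7 over 425.2, 493.7 and 597.1. Tm7sf2, a sterol reductase, ran over 461.0, 518.8 and 648.0. Ebp, a sterol isomerase, ran over 249.6, 299.9 and 355.0, and Dhcr7, which completes cholesterol from 7-dehydrocholesterol, ran over 807.3, 932.5 and 1053.

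The regulators and Cyp46a1 shared a low library, hippo17, for 3 of the 6 genes. Srebf2, the SREBP that mainly drives cholesterol genes, ran over 10570, 12740 and 14380, with hippo17 lowest and hippo29 next at 11280. Scap, its escort, ran over 4397, 5143 and 5583, and Cyp46a1, the neuronal cholesterol 24-hydroxylase, over 6216, 7731 and 8828; hippo17 was again lowest for both. Srebf1, which mainly drives fatty acid genes, ran over 2401, 2953 and 3298. Insig1, itself a target of SREBP, ran over 2578, 2989 and 3709, and Insig2, which retains SCAP in the same way, over 535.0, 613.1 and 679.0.

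By the ratio of the highest to the lowest library, efflux, uptake and transport genes held both the narrowest and the widest of the 31. By interquartile range, Sc5d (0.059 log2 units), Srebf2 (0.062) and Fdps (0.065) were narrower than Abcg1 (0.069), and Lss (0.243) and Abca1 (0.222), among others, were wider than Lrp1 (0.152). Abcg1, a sterol exporter, had a 1.18-fold range over 2442, 2717 and 2882. Abca1, which loads cholesterol onto apolipoproteins, had a 1.69-fold range over 1739, 2453 and 2944, with hippo3 lowest, the next library at 2091, and hippo17 highest. Nr1h2, which encodes the receptor LXR beta, ran over 1094, 1305 and 1412. Lrp1, a lipoprotein receptor, had a 1.96-fold range over 16620, 27050 and 32570. That range rested on 3 libraries, hippo8 at 16620, hippo24 at 18820 and hippo20 at 19070, since the fourth lowest stood at 23890. Hippo8 was also the library with the highest choroid plexus marker mean, whose part in its Lrp1 value was not tested. Npc1, the lysosomal exporter, ran over 1613, 1783 and 2306, with hippo17 highest and the next library at 2044. Npc2, which hands cholesterol to it, ran over 2459, 2841 and 3322, and Stard4, a sterol carrier of the cytosol, over 422.9, 507.3 and 577.4.

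**Figure D1:**
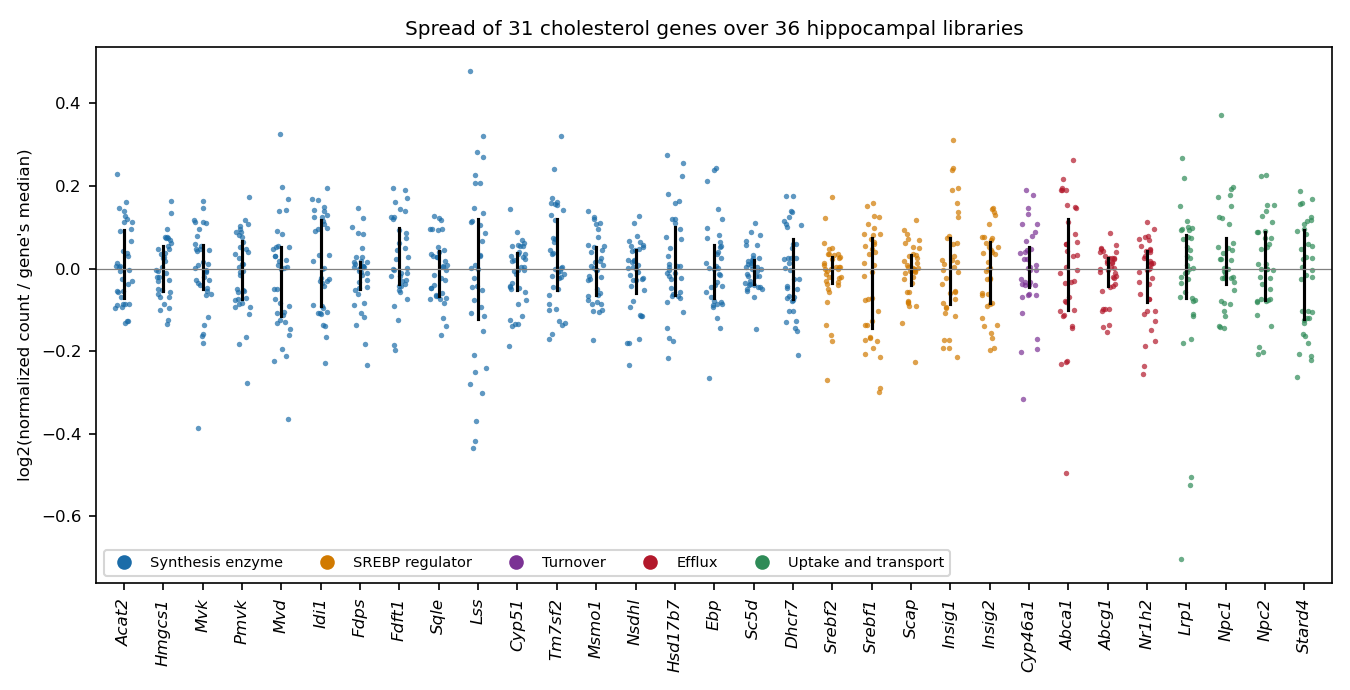
Each point is a library, placed by the log2 ratio of its normalized count to the gene's median over 36 libraries, for the 31 genes on the horizontal axis coloured by role; black bars span the interquartile range. From the lowest to the highest library, Lss spans most among synthesis genes (1.88-fold) and Abcg1 least of the 31 (1.18-fold), and 3 libraries lie far below the rest for Lrp1.

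Synthesis genes tended to vary together. Over the 153 pairs of synthesis genes the median Pearson correlation of log2(normalized count + 1) across the 36 libraries was 0.27, 130 pairs were positive, and 35 pairs (22.9%) reached 0.5. Over all pairs of tested genes, which were not matched for level, the median was -0.004, and 2.52% reached 0.5. These pairwise values are descriptions: the points share libraries, the pairs share genes, and no p was computed. The closest pairs were Hmgcs1 with Msmo1 at 0.75, Hmgcs1 with Idi1 at 0.72, Acat2 with Fdft1 at 0.71 and Fdps with Fdft1 at 0.71. The co-variation was unequal along the pathway. The 28 pairs among the 8 enzymes up to squalene had a median of 0.46, with 13 at 0.5 or more. Some of these pairs were lower by rho and others higher. Pmvk with Mvd was 0.49 against an r of 0.62, and Acat2 with Fdft1 was 0.79 against 0.71. Hippo16 was the lowest library for Pmvk, Mvd and Fdps, and medians without it were not computed. The 45 pairs among the 10 later enzymes had a median of 0.19, with 7 at 0.5 or more, and the 80 pairs between early and late enzymes had a median of 0.22, with 15. Lss, Tm7sf2 and Ebp reached 0.5 with none of the other 17 synthesis genes, and their closest partners were Hmgcs1 at 0.31, Dhcr7 at 0.42 and Fdft1 at 0.39. Mvk had a median of -0.01 with the other synthesis genes, was closest to Mvd at 0.59, and made the most negative pair of the set with Nsdhl at -0.30.

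Efflux, uptake and transport genes showed less of this. Their 21 pairs had a median of 0.14, and only Abcg1 with Nr1h2, at 0.55, reached 0.5. That median was 0.05 by rho and changed sign to -0.034 in partial correlations given the mean of 10 oligodendrocyte markers. The exporters Abca1 and Abcg1, both LXR targets, had an r of -0.16. Between the 18 synthesis and the 7 efflux, uptake and transport genes, the 126 pairs had a median of 0.10, and 9 reached 0.5. All 9 involved Stard4 or Nr1h2. Stard4 was closest to Fdft1 at 0.73, Hmgcs1 at 0.65 and Sqle at 0.64, and its median over the 18 synthesis genes was 0.41. Nr1h2 was closest to Mvk at 0.65 and Mvd at 0.61. Abca1, Abcg1, Lrp1, Npc1 and Npc2 reached 0.5 with no synthesis gene, and the lowest pair was Fdps with Abca1 at -0.42. As list means, the synthesis genes and the efflux, uptake and transport genes had a Pearson r of 0.48 and a Spearman rho of 0.43 over the 36 libraries, with an r of 0.43 without the 2 libraries farthest from the median of the synthesis mean.

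Among the regulators, Insig1 lay closest to synthesis. Its r with Fdft1, 0.84, was the highest between a regulator and a synthesis gene, and it reached 0.5 with 8 of the 18. Insig1 was also close to Stard4, at 0.66, and to Srebf1, at 0.57. Srebf2 reached 0.5 with 3 synthesis genes, Scap with 1 and Srebf1 and Insig2 with 0, although Fdft1 with Srebf1 stood just below, at 0.50 after rounding. Insig2 ran against Nr1h2 at -0.63 and against Srebf1 at -0.47. Srebf1 went with Npc2 at 0.65, Nr1h2 at 0.55 and Abcg1 at 0.51. Cyp46a1 was closest to Scap, at 0.82, and among synthesis genes to Mvk at 0.66 and Mvd at 0.62, while with Sc5d it stood at -0.51.

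**Figure D2:**
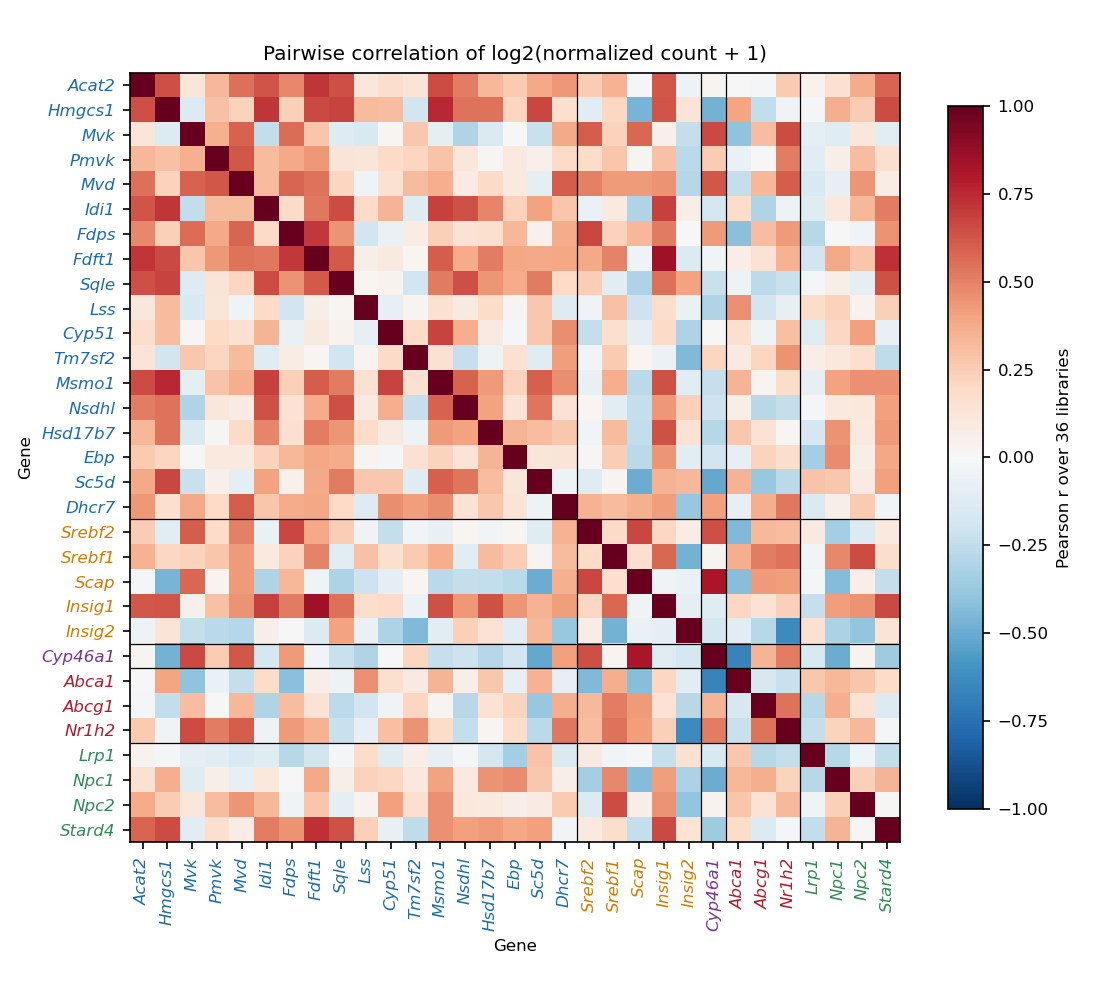
Colour gives the Pearson r over 36 libraries of log2(normalized count + 1) for each pair of the 31 genes, which are listed on both axes in the order of their roles, with lines between roles. The block around Acat2, Hmgcs1, Idi1, Fdft1, Sqle and Msmo1 is red, as is Insig1 with them, while Lrp1 is pale throughout, between -0.34 and 0.28.

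To test co-variation across the whole table, 3 genes were taken as references: Hmgcs1 for synthesis, Srebf2 for regulation and Abca1 for efflux. Every tested gene was correlated with each, with a two-sided permutation test of 100000 permutations and Benjamini-Hochberg adjustment over all tested genes, called at an adjusted p under 0.05. The smallest p these permutations can give is 1e-05. Marker means of 3 cell types were added as references, which makes 6 families of tests, adjusted separately.

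Hmgcs1 was followed by other enzymes of its pathway. Of the other 30 genes, 8 (26.7%) were called with positive r: Msmo1 (0.75), Idi1 (0.72), Sqle (0.67), Sc5d (0.67), Fdft1 (0.66), Stard4 (0.65), Acat2 (0.64) and Insig1 (0.63). Over all 15836 tested genes, 0.183% were called in that direction and 0.265% in the negative direction. Each of the 8 had a permutation p of 1e-05 to 4e-05 and an adjusted p of 0.0218. Their Spearman rho was 0.63 to 0.75, with adjusted permutation p of 0.0244 to 0.0409. Without the 2 libraries farthest from the Hmgcs1 median, hippo36 and hippo3, r was 0.61 to 0.70, but only Idi1 was still called, where 0.0253% of all tested genes were called in either direction. The 8 fall on both sides of squalene, and the set includes a carrier (Stard4) and a feedback regulator (Insig1) beside 6 enzymes. Nsdhl and Hsd17b7, both at 0.54, had adjusted p of 0.0744 and 0.087.

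No gene of the 31 was called with negative r, though 2 had an unadjusted p under 0.05 in that direction: Cyp46a1 at -0.47 and Scap at -0.46. Srebf2 and Hmgcs1 had an r of -0.11 (adjusted permutation p 0.836) and a rho of -0.01 (adjusted permutation p 0.99). No co-variation of this regulator with this enzyme was detected at transcript level in these 36 libraries. Outside the 31, the 5 genes with the highest r were Cast, a calpain inhibitor, at 0.67, the malic enzyme Me1, which supplies NADPH, at 0.66, the endocytic adaptor Picalm at 0.64, the lysosomal membrane protein Lamp2 at 0.63 and the actin bundler Pls3 at 0.63. Of 31 further genes of sterol and fatty acid metabolism found in the table, 0 were called with Hmgcs1 in either direction by this permutation test, while 7 had an unadjusted p under 0.05. The highest of them was Cyp27a1, a sterol hydroxylase, at 0.51.

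Srebf2 was followed by other genes of the set in this test, and whether its r differed from that of Hmgcs1 was not tested gene by gene. Of 30 genes, 5 (16.7%) were called with positive r: its escort Scap (0.67), Fdps (0.67), Cyp46a1 (0.65), Mvk (0.61) and Mvd (0.51). The background was large, with 10.2% of all tested genes called positive and 6.21% negative, so the share of the 30 is not far above it. Their adjusted permutation p ran from 0.000723 for Scap to 0.0178 for Mvd. Spearman rho was 0.64 for Fdps and 0.56 for Mvk but 0.39 for Cyp46a1, 0.38 for Scap and 0.31 for Mvd, and those last 3 were not called by rho. Without the 2 libraries farthest from the Srebf2 median, hippo17 and hippo29, r rose to 0.77 for Fdps and 0.65 for Mvk and was 0.48 for Scap, 0.47 for Mvd and 0.44 for Cyp46a1, which were then not called. Without hippo17 alone, Mvd was no longer called, at 0.46 and an adjusted p of 0.061.

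Abca1 was the only gene of the 30 called with negative r, at -0.44 and an adjusted permutation p of 0.0498. Seen from Abca1 as the reference, the same pair had an adjusted p of 0.0679, and without hippo17 r was -0.36 and the adjusted p 0.17. The genes outside the set closest to Srebf2 included Atp6v0a1, a subunit of the vesicle proton pump, at 0.86, the synaptic dynamin Dnm1 at 0.86 and the adhesion molecule Cadm3 at 0.84. Among the 31 further metabolic genes, 4 (12.9%) were called positive with Srebf2 and 3 (9.68%) negative. These shares are not far above the 10.2% and 6.21% of all tested genes. The metabolic genes called positive included fatty acid synthase Fasn at 0.67 and the citrate lyase Acly at 0.55. Those called negative included Ggps1, which diverts farnesyl diphosphate to geranylgeranyl diphosphate, at -0.56.

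Abca1 was followed by none of the other 30 genes in the positive direction by the permutation test, with 5 at an unadjusted p under 0.05, against 3.20% of all tested genes called. In the negative direction 1 of 30 (3.33%) was called, against 5.81% of all tested genes. That gene was Cyp46a1, at an r of -0.67, a rho of -0.58 and an adjusted p of 0.00519. Libraries with high Abca1 thus had low Cyp46a1, with hippo3 at one end (1739 and 8828) and hippo17 at the other (2944 and 6216). Without both of these libraries r was -0.57, with an adjusted p of 0.059. Without hippo17 alone it was -0.63 and still called, with an adjusted p of 0.014. Abcg1 and Nr1h2, the other 2 efflux genes, had r of -0.16 and -0.22 with Abca1. Lss, at 0.46, had the highest r among the 30, with an adjusted p of 0.0535. With equal column totals 1 of the 30 was called positive, where 8.14% of all tested genes were called in either direction. By rho, Fdps was also called negative, at -0.49 with an adjusted permutation p of 0.0477. In that setting 5.68% of all tested genes were called in either direction.

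Outside the set, the genes closest to Abca1 were the receptor phosphatase Ptprz1 at 0.71, the endothelin receptor Ednrb at 0.71, Reep3 at 0.70, Dock1 at 0.69 and Ccdc141 at 0.68. Among the further metabolic genes, 3 were called positive and 0 negative with Abca1, with 4 at an unadjusted p under 0.05 on the negative side. They compare with 3.20% of all tested genes called positive. The 3 were the oxysterol hydroxylase Cyp7b1 at 0.49, the transporter Abca7 at 0.47 and the lysosomal protein Scarb2 at 0.46. By rho, Cyp7b1 and Abca7 were not called, with adjusted permutation p of 0.059 and 0.154.

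**Figure D3:**
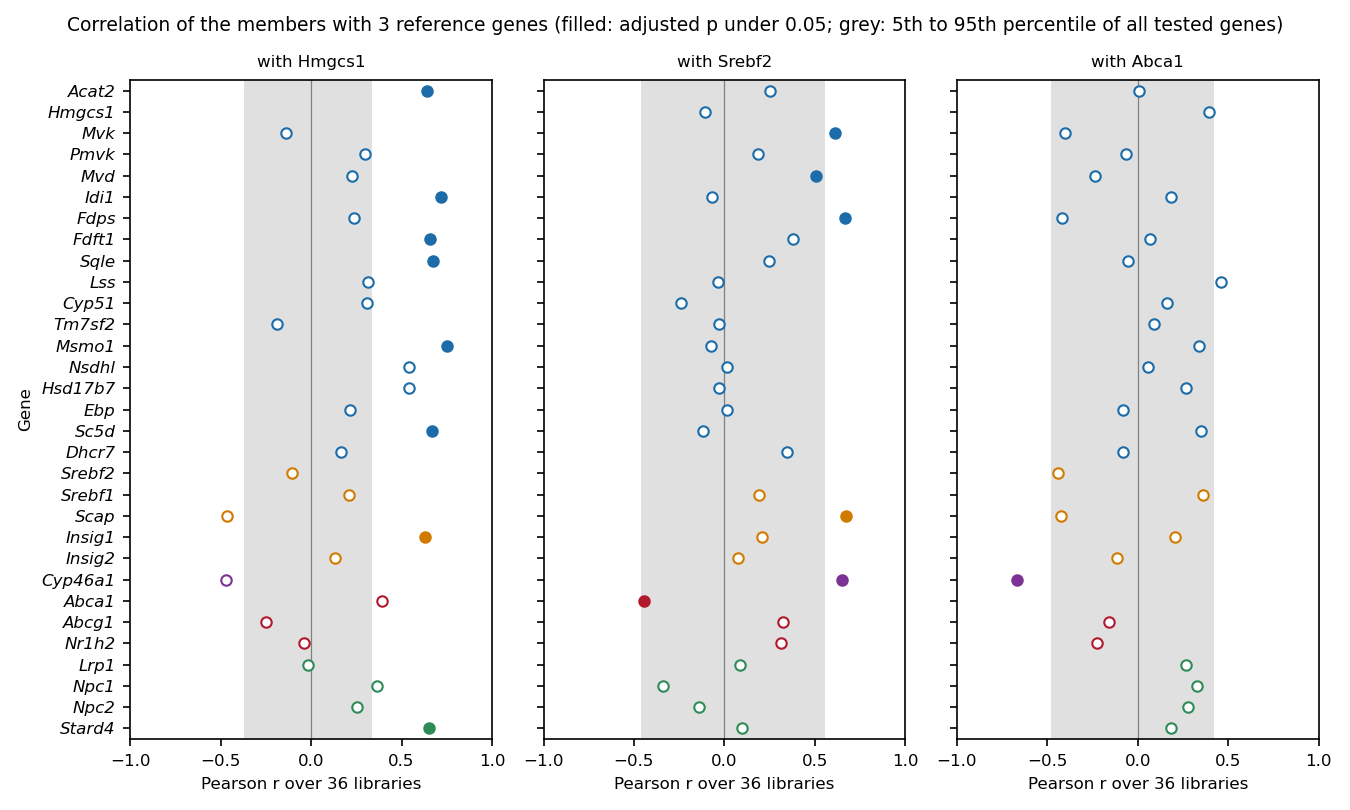
Each circle is the Pearson r over 36 libraries of a gene (vertical axis, coloured by role) with Hmgcs1, Srebf2 or Abca1; filled circles passed an adjusted p under 0.05 and grey bands span the 5th to 95th percentile of all tested genes. Filled circles number 8 for Hmgcs1, 6 for Srebf2 and 1 for Abca1.

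**Figure D4:**
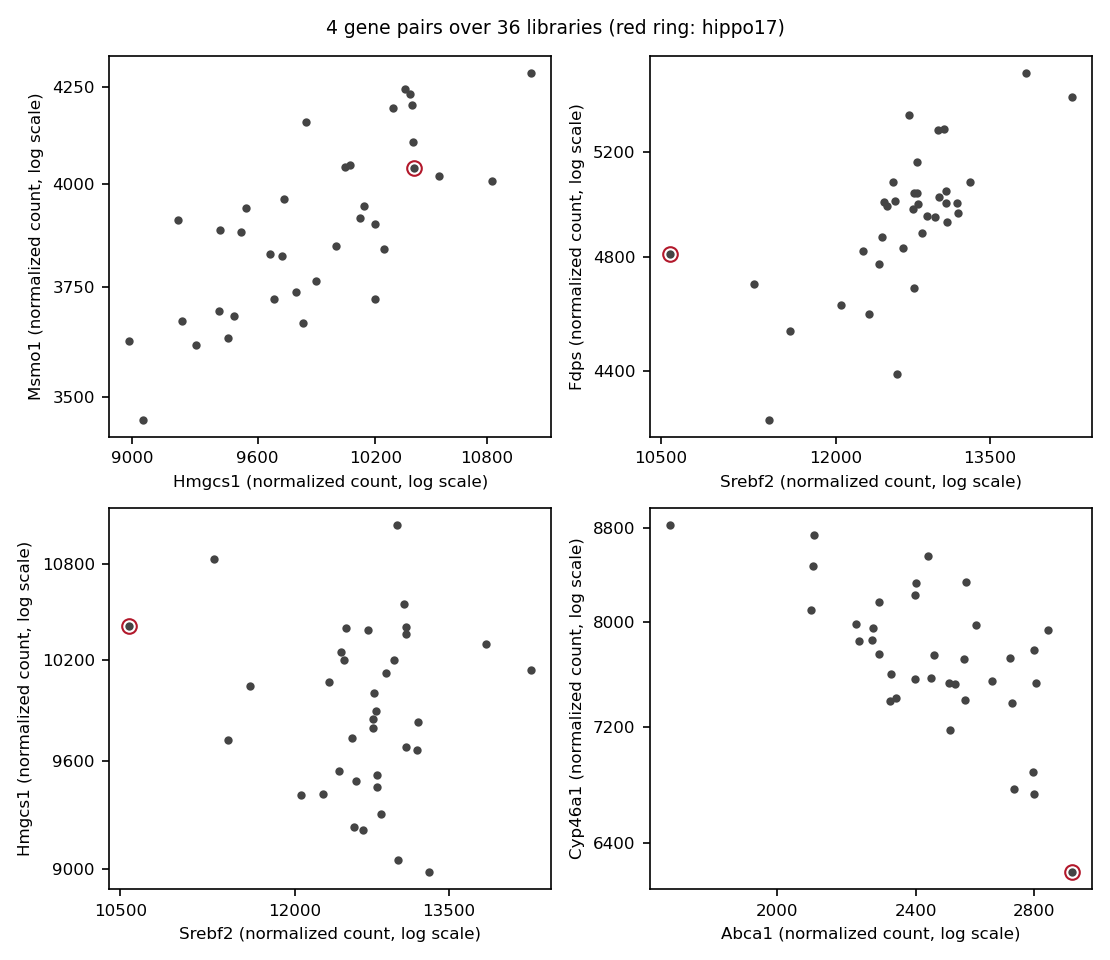
Each point is a library, with normalized counts on log axes for 4 gene pairs; the red ring marks hippo17. Msmo1 rises with Hmgcs1 (r 0.75), Fdps with Srebf2 (0.67), Hmgcs1 shows no slope with Srebf2 (-0.11) and Cyp46a1 falls as Abca1 rises (-0.67).

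Markers of the cell types in the tissue moved with several of these genes. In bulk RNA, fewer cells of a type and less RNA per cell cannot be told apart. All 10 neuron markers were found, and their mean log2 level ran from 14.12 in hippo17 and 14.34 in the next library to 14.52, with a median of 14.43. Against this mean, 5 of the 31 genes were called positive: Srebf2 (0.74), Cyp46a1 (0.72), Scap (0.68), Fdps (0.50) and Mvd (0.47). Among all tested genes 11.7% were called positive and 8.89% negative. Abca1, at -0.64, and Npc1, at -0.50, were the 2 called negative. Npc1 depended on few libraries, with an r of -0.10 without hippo17 and hippo14, the libraries farthest from the median. The other 6 kept r of 0.45 to 0.72 in size and in the same direction without them.

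The genes called with the neuron mean include 5 of the 6 called with Srebf2, all but Mvk, which had an r of 0.41 with an adjusted permutation p of 0.0896. Mvk was called by rho, at 0.55 with an adjusted permutation p of 0.0103, and had an r of 0.56 without the 2 farthest libraries. In partial correlations given the neuron mean, 0 of the 30 genes were called with Srebf2, with 6 at an unadjusted p under 0.05, while calls over all tested genes fell to 0.669% in either direction. In that setting r was 0.51 for Fdps, 0.50 for Mvk, 0.33 for Scap, 0.27 for Mvd, 0.25 for Cyp46a1 and 0.06 for Abca1. Cyp46a1 with Abca1 became -0.39, with an adjusted permutation p of 0.59, where 0 of all tested genes were called with Abca1 and 1135 had an unadjusted p under 0.05. All 8 genes called with Hmgcs1 remained called given the neuron mean, and Hmgcs1 itself had an r of -0.17 with it.

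All 10 oligodendrocyte markers were found as well, with a mean log2 level of 12.48 in hippo16 to 13.81 in hippo17 and a median of 12.96. Npc1, at 0.64, and Srebf1, at 0.49, were the 2 of 31 called positive, against 4.97% of all tested genes, and 0 were called negative, against 5.16%, with 2 at an unadjusted p under 0.05. The adjusted permutation p was 0.00238 for Npc1 and 0.0215 for Srebf1. By rho, Srebf1 was not called (0.52, adjusted permutation p 0.0513) and Insig1 was (0.57, 0.0248). Given the neuron mean, 9 of the 31 were called with the oligodendrocyte mean, 8 positive and 1 negative, where 15.2% of all tested genes were called in either direction. The count was 1 without the 2 farthest libraries, against 1.55% of all tested genes called in either direction. It was also 1 given the first principal component, against 4.95%. Of the 18 synthesis genes, 15 had a positive r with this mean, with a median of 0.16, and 0 were called by this test in either direction, with 3 at an unadjusted p under 0.05, all positive. The highest among them was Pmvk at 0.45. The astrocyte mean, over 10 markers found, ran from 12.59 to 12.97 with hippo17 highest. Abca1 was called positive with it, at 0.51, and Fdps and Srebf2 negative, at -0.51 each, against 3.37% and 2.62% of all tested genes. Without hippo17, 0 of the 31 were called with the astrocyte mean, with 9 at an unadjusted p under 0.05. In that setting 1.64% of all tested genes were called in either direction. By rho 0 were called as well, with 7 at an unadjusted p under 0.05, against 1.17% of all tested genes. Partial correlations given a marker mean cannot separate cell composition from RNA level per cell. The part of cell composition in the co-variation of the genes was not tested.

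**Figure D5:**
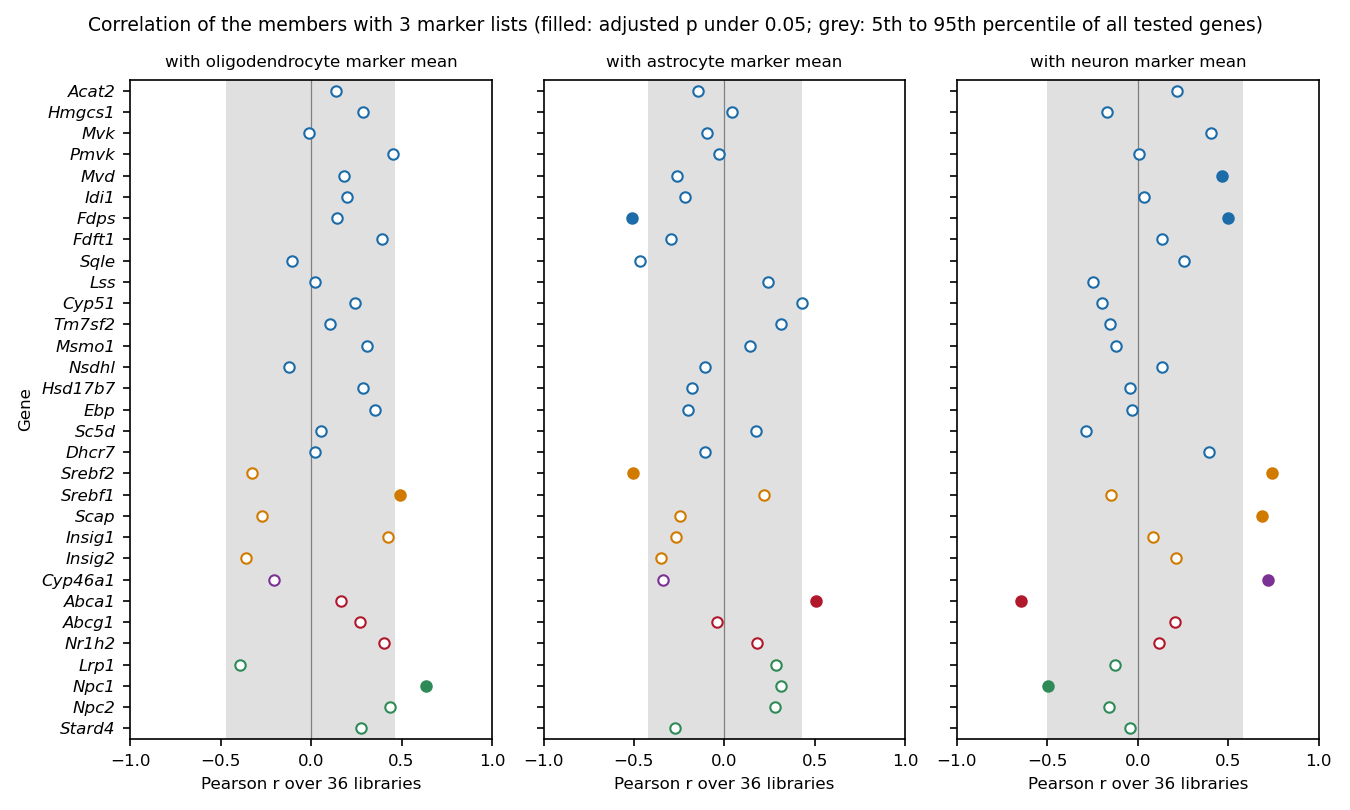
Each circle is the Pearson r over 36 libraries of a gene (vertical axis, coloured by role) with the mean of 10 oligodendrocyte, astrocyte or neuron markers; filled circles passed an adjusted p under 0.05 and grey bands span the 5th to 95th percentile of all tested genes. Srebf2, Cyp46a1 and Scap lie far right for neurons (0.68 to 0.74) and Abca1 far left (-0.64), while Npc1 lies far right for oligodendrocytes (0.64).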

How the data were processed

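Total RNA of 36 hippocampal libraries was measured by RNA-seq. The authors deposited a table of normalized counts, a signal per gene and library that is not divided by gene length; kallisto 0.43 and DESeq2 are listed in the submitters' processing notes, with no role or order. The transcriptome used for mapping was not given in the sources used here. Of 20603 rows, 2584 are named by transcript only.

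Values were taken as log2(normalized count + 1), and rows with a median of 10 or more (15837) were tested. Pearson and Spearman correlations with reference genes were tested by permutation (numpy 2.4.6, scipy 1.17.1), with the computation checked on simulated data. All 31 genes are named, with the 5 highest non-members for each reference gene and the extremes of the further metabolic genes. Some of the genes closest to Srebf2 are not reported here. The members, lists, references and motifs were chosen with earlier results of these data known. Marker means as references, and alternatives given the neuron mean or without hippo17 or hippo30, were added after seeing the data. Nothing states whether libraries shared a batch. The permutation tests treat the 36 libraries as exchangeable, although the animals belong to 6 labelled groups. The p-values therefore make no allowance for group or batch.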

Additional observations from a re-analysis of the deposited data

How the results depend on the processing

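The settings tried were another pseudocount, 2 other filters, Spearman's rho, equal column totals, correlations given the oligodendrocyte mean, the neuron mean or the first principal component, and leaving out hippo17, hippo30 or the 2 farthest libraries; the neuron mean and the 2 single libraries were chosen after seeing the data. The count of 8 genes with Hmgcs1 fell to 1 without the 2 farthest libraries, where 14 had an unadjusted p under 0.05 and calls over all tested genes fell from 0.448% to 0.0253%, and was 8 or 9 otherwise. The count of 6 with Srebf2, against 16.4% of all tested genes, became 2 by rho (3.54%), 3 without the 2 farthest (5.18%), of which 2 were among the 6, and 0 given the neuron mean (0.669%), where 6 had an unadjusted p under 0.05. It rose to 9 given the oligodendrocyte mean (19.7%) and given the first principal component (23.1%). The count of 1 with Abca1 compares with 9.01% of all tested genes called. It became 2 at a median of 50 or more, by rho and with equal totals. It was also 2 given the oligodendrocyte mean or the first principal component. By rho both genes were negative, and in each of the others 1 was positive and 1 negative. In these settings 5.68% (by rho) to 14.3% (given the first principal component) of all tested genes were called. The count with Abca1 became 0 without the 2 farthest libraries and given the neuron mean. In each case 6 had an unadjusted p under 0.05, where 0.284% and 0 of all tested genes were called. The r of Abca1 with Srebf2 changed sign to 0.062 given the neuron mean.

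The median r within efflux, uptake and transport genes, 0.144, became -0.034 given the oligodendrocyte mean, 0.024 given the first principal component, 0.015 given the neuron mean, 0.05 by rho, 0.076 with equal totals and 0.071 without the 2 farthest libraries. The synthesis pair median stayed between 0.214 and 0.283. The causes were not tested. None of the 31 had a median under 299.9. The library of lower depth, hippo30, was highest for Mvk (570.8) and lowest for Idi1 (912.8) and Nsdhl (1093). Without hippo30 the count with Srebf2 was 5, against 16.0% of all tested genes. Abca1 was then not called with Srebf2, at an r of -0.443 and an adjusted permutation p of 0.052. The part of depth in these values was not tested.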
